A study of Homo sapiens with 8 samples.

Results

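The 58 genes described here encode the machinery of mitosis: the kinases and the transcription factor FOXM1 that drive entry, the chromosomal passenger complex, the spindle checkpoint, the kinetochore, mitotic kinesins, spindle microtubule proteins and proteins of cytokinesis and of the chromosome surface. They were taken by name, and each of the 58 had a row in the table of 58302 genes. RNA sequencing was performed in DLD1 cells, a human colorectal cancer line. OE-WT cells carried a lentiviral construct for stable overexpression of wild-type TRMT6 and TRMT61A, the subunits of the enzyme that places m1A on tRNA, and CTRL cells were transduced with the empty vector. The study asked whether this tRNA methylation drives senescence in tumor cells, a state in which cells stop dividing, so the mRNAs of dividing cells bear on that question.

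There were 2 libraries per group, with each library spread over 2 lanes that the table does not separate. The counts summed to 10460284 and 10327498 in OE-WT and to 12379671 and 12063433 in CTRL. The series' design text speaks of duplicate cultures and the methods of the study of 3 replicates, and the sources do not say whether the libraries of a group stem from separate transductions, so the p-values measure the spread between these libraries. Both transgenes read as labelled: TRMT6 had 210.7 and 180.9 CPM (counts of a gene relative to the TMM-scaled library size) in OE-WT against 52.6 and 55.4 in CTRL, and TRMT61A had 138 and 130.4 against 58.9 and 56.8. The 9 epithelial markers summed to 12109 and 12452 CPM in OE-WT and to 11077 and 10875 in CTRL. Most of this sum came from KRT8 and KRT18 (mean 6012 and 3855 CPM in OE-WT). These were the 2 of the 9 called higher in OE-WT (adjusted p below 0.05, edgeR's quasi-likelihood test). The 3 called lower were KRT20, CDH1 and KRT19, at 0.349, 0.819 and 0.878 of their CTRL levels. Over all genes tested, 9.44% were called higher and 11.6% lower. The markers of fibroblasts (7), leukocytes (6) and endothelial cells (4) summed to between 0.590 and 4.74 CPM in every library, and COL1A2, COL3A1, PDGFRA, THY1, DCN, CD3E, CDH5 and KDR were at 0. The endothelial marker VWF was called lower in OE-WT, at 5 and 6 counts against 30 and 14 in CTRL.

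At mitosis the kinases CDK1, PLK1 and AURKA start spindle assembly, and kinetochores built on centromeric chromatin capture microtubules. The spindle checkpoint holds back the anaphase-promoting complex and its activator CDC20 until all chromosomes are attached, after which securin and cyclin B are degraded and the cell divides. Most of these genes are transcribed together late in the cell cycle: in resting and G1 cells the DREAM complex represses them through CHR and CCAAT elements, and in G2 cells MYBL2 and FOXM1 activate them. Colorectal cancer cells in culture cycle and express these genes, and senescent cells are known to lose many of them.

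The list did not move as a block in OE-WT cells. Of the 56 genes with enough counts to test, 9 rose and 1 fell at an adjusted p below 0.05 in edgeR's quasi-likelihood test, where 21.1% of all 14133 genes tested were called, 9.44% higher and 11.6% lower. The called share of the list was 17.9% and its share called higher 16.1%, so the total was near the background and the higher share above it. In DESeq2's Wald test, 9 of the 51 members with an adjusted p were called, all higher, which is 17.6% against 12.1% of all genes with one (4.58% called higher). With no filter beyond 1 count in edgeR it was 15.5%, all higher, against 8.70% (3.23% higher), so how the total compares with the background depends on the test and the filter. The genes that rose were MKI67, CENPF, ECT2, ZWINT, MIS12, SKA2, TOP2A, FOXM1 and BIRC5, by 1.20-fold (BIRC5) to 1.74-fold (MKI67), and the gene that fell was INCENP, to 0.831 of its CTRL level. Of the 46 genes not called, 34 had a 95% interval of the log2 fold change within 0.5 of no change, among them CDC20, UBE2C, PLK1, AURKA, AURKB and CDCA8. The intervals of the called genes BIRC5, FOXM1 and INCENP also lay within this bound, so it does not separate called genes from the others. The median log2 fold change was 0.09 over the 56 genes and 0.01 over all genes tested. Of the 56 values 39 were positive, and of the 14133 values of all genes tested 7229 were. When library size alone set the scale, 8 members were called higher and 3 lower and the median was 0.00, with 23.0% of all calls on the higher side in place of 44.8%.

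**Figure D1:**
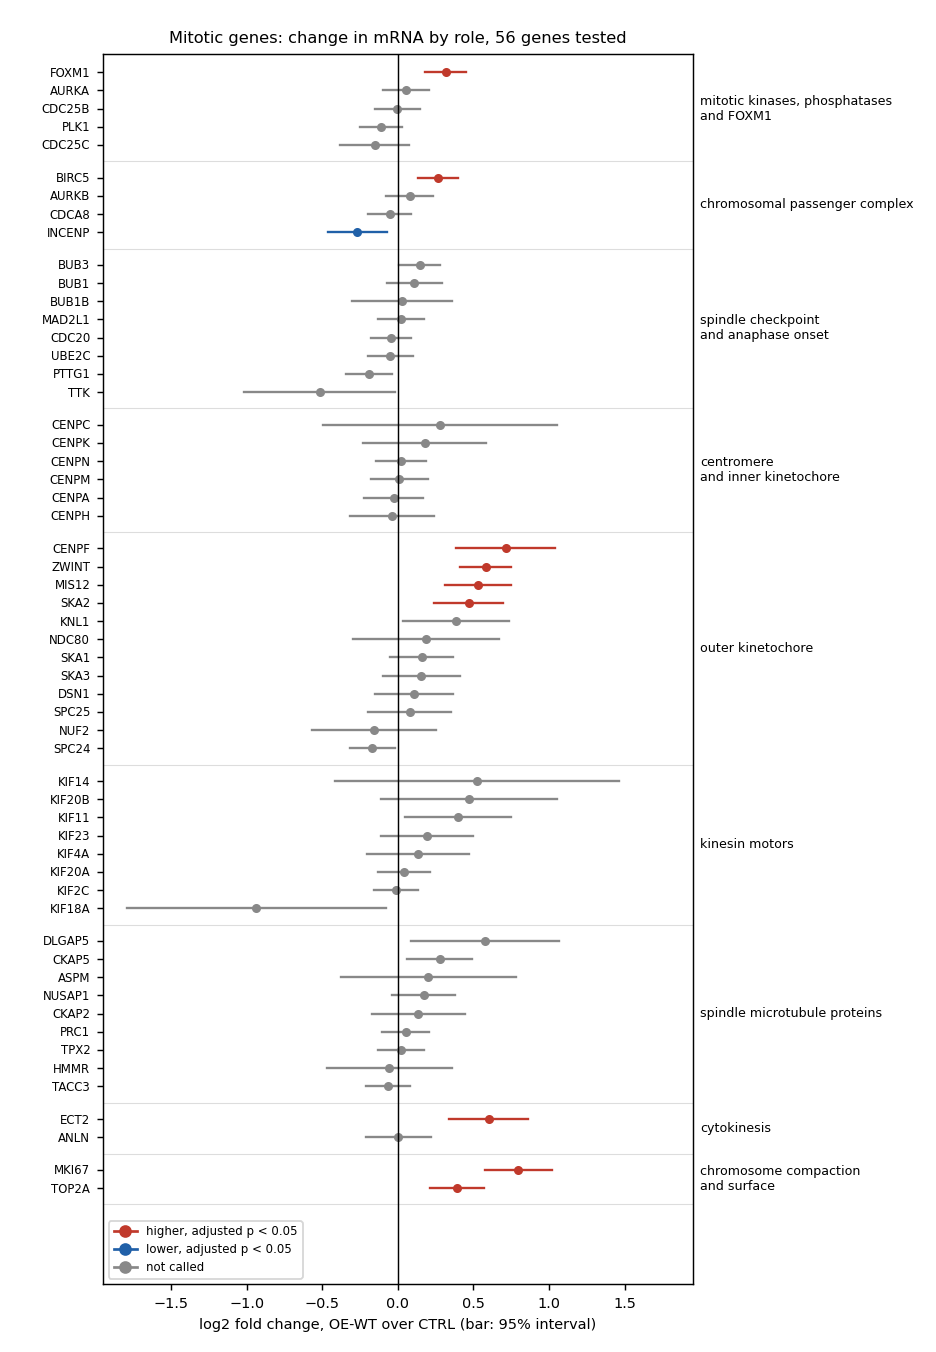
The x axis gives the log2 fold change of each of the 56 genes tested, OE-WT over CTRL, as a point with its 95% interval as a bar, grouped by role along the y axis. The 9 genes called higher (red) and INCENP (blue) stand among 46 genes not called (grey). Of these 46, 34 have intervals within 0.5 of no change, as do the called genes BIRC5, FOXM1 and INCENP.

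In bulk RNA, a different share of cells in mitosis and a different amount of each mRNA per cell cannot be told apart. None of the 56 genes passed the study's own thresholds, an unadjusted p below 0.05 with an absolute log2 fold change above 1, which 3.15% of all genes tested passed. At an unadjusted p below 0.05 alone there were 19 members in edgeR's quasi-likelihood test (33.9%, with 33.8% of all genes tested) and 9 in DESeq2's Wald test (16.1%, with 19.4% of all genes). The CPM of the groups did not overlap for 23 members on the higher side and 10 on the lower side, and 29.9% and 30.2% of all genes tested did the same. With 2 libraries per group the smallest p that an exact permutation test (two-sided) allows is 0.333.

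The promoters of some of these genes are shown because a shared CHR element is what the list is best known for, and because promoters with the same letters belonged to genes that did and did not move. The windows are RefSeq sequence on GRCh38.p14, from 250 bases before to 50 after each gene's start, and 48 of the 58 genes had one. The letters searched on both strands were TTTGAA and TTCGAA for the CHR, CCAAT for the CCAAT box, and TTCCCGC and TTGGCGC for E2F sites. CHR letters were found in 36 of the 48 genes (75%) and in 19.5% of the 27305 genes with a window. CCAAT letters were found in 36 of the 48 (75% against 39.7%) and E2F letters in 12 of the 48 (25% against 11%). CHR and CCAAT letters stood together in a window of 29 of the 48 genes (60.4%), against 7.85% of all genes. Of the 8 called genes with a window 6 held the CHR letters, and of the 38 tested and not called 29 did. In the 250 bases before the start alone the CHR counts were 5 of 8 and 19 of 38, with 17.2% of all genes. A match of letters is a description of the sequence and does not show that a factor bound there.

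The 120 bases before the start, read 5′ to 3′ on the gene's own strand, are given for the largest increases (MKI67, CENPF), for the gene that fell (INCENP), and for CDC20 and PLK1, which were chosen after their values were seen as abundant genes that were not called. Capitals mark the CHR letters TTTGAA and the CCAAT letters, the latter as ATTGG where the box lies on the other strand. They were taken from chr10:128126424-128126543 (minus strand), chr1:214603075-214603194, chr11:62123891-62124010, chr1:43358861-43358980 and chr16:23678769-23678888 (plus strand), in that order.
MKI67: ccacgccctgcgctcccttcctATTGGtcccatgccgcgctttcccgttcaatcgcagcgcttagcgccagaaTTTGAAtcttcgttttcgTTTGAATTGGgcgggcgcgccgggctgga
CENPF: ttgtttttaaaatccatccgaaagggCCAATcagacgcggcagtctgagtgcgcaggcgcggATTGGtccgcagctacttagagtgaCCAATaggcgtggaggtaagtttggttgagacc
INCENP: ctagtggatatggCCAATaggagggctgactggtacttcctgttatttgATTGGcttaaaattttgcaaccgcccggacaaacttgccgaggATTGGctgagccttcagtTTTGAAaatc
CDC20: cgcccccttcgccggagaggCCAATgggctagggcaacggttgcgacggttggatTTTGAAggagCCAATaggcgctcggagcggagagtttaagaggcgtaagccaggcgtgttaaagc
PLK1: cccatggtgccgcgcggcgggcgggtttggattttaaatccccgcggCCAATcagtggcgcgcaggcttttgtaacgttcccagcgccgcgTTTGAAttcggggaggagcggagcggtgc
Counted from the start, the CHR letters began at positions -47 and -29 in MKI67, where the latter shares its last base with a reverse CCAAT box, at -65 in CDC20, at -29 in PLK1 and at -10 in INCENP. In CENPF they lay at position 41, after the start and outside the bases shown. SKA2 and MIS12 rose with no such letters in their windows.

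Of the mitotic kinases, phosphatases and FOXM1, 1 of 5 rose. FOXM1 (ENSG00000111206, chromosome 12, 2857680 to 2877174, minus strand), the forkhead factor that activates G2/M genes, had 183 and 181 CPM in OE-WT and 149 and 143 in CTRL. Both OE-WT libraries lay above both CTRL libraries, and the log2 fold change was 0.32 (standard error, SE, 0.06 and adjusted p = 0.0013, edgeR's quasi-likelihood test). Of its 4919 exon bases, 782 overlap ITFG2 on the opposite strand. ITFG2 also had a log2 fold change of 0.32 (adjusted p = 0.0053, same edgeR test), and the part of the shared bases in either value was not tested. PLK1, the polo-like kinase of spindle assembly and known as a FOXM1 target, had 109 and 113 CPM in OE-WT and 118 and 122 in CTRL, a log2 fold change of -0.11 with a 95% interval from -0.25 to 0.03. AURKA, the centrosomal Aurora kinase, had 97.0 and 87.5 CPM against 87.1 and 90.8, and these groups overlapped. The phosphatases that activate CDK1 gave log2 fold changes of 0.00 (CDC25B) and -0.15 (CDC25C, the largest decrease of the class), with adjusted p of 0.984 and 0.35 in edgeR's test.

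The chromosomal passenger complex, which corrects faulty attachments at the centromere and later marks the division plane, was the class with calls in both directions. BIRC5 (ENSG00000089685, chromosome 17, 78214186 to 78225636, plus strand), which encodes survivin, had 193 and 196 CPM in OE-WT and 163 and 161 in CTRL. The groups did not overlap, and the log2 fold change was 0.27 (SE 0.06, adjusted p = 0.0048, edgeR's quasi-likelihood test). With library size alone it was 0.17 and no longer called (adjusted p = 0.13, edgeR). INCENP (ENSG00000149503, chromosome 11, 62123998 to 62153169, plus strand), the scaffold of the complex, had 45.5 and 38.6 CPM in OE-WT and 54.0 and 47.2 in CTRL. All OE-WT values lay below all CTRL values, though by little, and the log2 fold change was -0.27 (SE 0.09, adjusted p = 0.045, edgeR's test). This call was the least stable of the list: it was lost in 6 of 14 alternatives, with DESeq2 (adjusted p = 0.22), with no filter (0.090), with the replicate block (0.051), with a GC trend removed (0.24), without OE-WT replicate 2 (0.31) and without CTRL replicate 1 (0.35). The catalytic subunit AURKB had 65.7 and 64.2 CPM against 62.8 and 60.1, a log2 fold change of 0.08. CDCA8, which encodes borealin, had a value of -0.05 (95% interval -0.20 to 0.09).

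The 8 genes of the spindle checkpoint and anaphase onset held no call in edgeR's quasi-likelihood test or in DESeq2. In edgeR 1 higher and 2 lower values had an unadjusted p below 0.05, as did 33.8% of all genes tested in either direction. CDC20, the activator of the anaphase-promoting complex, had 239 and 243 CPM in OE-WT and 251 and 245 in CTRL. These libraries lay within a narrow range, and the log2 fold change was -0.04 (95% interval -0.17 to 0.09). UBE2C, the ubiquitin-conjugating enzyme of that complex, had 146 and 157 CPM against 165 and 148, with overlapping groups and a log2 fold change of -0.05. PTTG1, which encodes securin, the inhibitor of separase, had 99.5 and 109 CPM in OE-WT and 125 and 113 in CTRL. Its log2 fold change of -0.19 missed the threshold (adjusted p = 0.066, edgeR's quasi-likelihood test), and it was called lower in 4 alternatives, with library size only, with the GC trend removed, without OE-WT replicate 2 and without CTRL replicate 2. The checkpoint kinase TTK, also named MPS1, gave the value farthest from 0 in the class at few counts: 30 and 33 counts for OE-WT against 53 and 60 for CTRL, with a log2 fold change of -0.52 (95% interval -1.02 to -0.02, adjusted p = 0.134 in edgeR's test). BUB3 (0.14), BUB1 (0.11), BUB1B (0.03) and MAD2L1 (0.02), which build the checkpoint signal at the kinetochore, had positive log2 fold changes and were not called.

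At the centromere and inner kinetochore none of 6 genes was called by edgeR or DESeq2. In edgeR 0 had an unadjusted p below 0.05, where 33.8% of all genes tested did. CENPA, the histone H3 variant that marks the centromere, had 34.4 and 32.2 CPM in OE-WT and 32.2 and 35.6 in CTRL, with overlapping groups and a log2 fold change of -0.03. CENPM, a subunit of the constitutive centromere network and the most abundant of the class per length, had 33.0 and 32.3 CPM against 33.2 and 31.7, a log2 fold change of 0.01. CENPC, which ties CENPA chromatin to the outer kinetochore, had 15 and 16 counts for OE-WT against 19 and 13 for CTRL. At this depth its log2 fold change of 0.28 had a 95% interval from -0.50 to 1.05, so a change was not detectable. CENPH, CENPK and CENPN had log2 fold changes of -0.04, 0.18 and 0.02.

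The outer kinetochore, the class with the most genes tested (12), also held the largest number of increases, 4 of the 9. By edgeR 4 of the 12 (33.3%) were called higher and none lower, where 9.44% of all genes tested were called higher. DESeq2 also called 4 higher and none lower, where it called 4.58% of all genes with an adjusted p higher. At an unadjusted p below 0.05 in edgeR there were 5 higher and 1 lower, where 33.8% of all genes passed in either direction. The share called higher by edgeR was larger in the small classes of cytokinesis (1 of 2) and of chromosome compaction and surface (2 of 2). CENPF (ENSG00000117724, chromosome 1, 214603185 to 214664574, plus strand), a large coiled-coil protein of the fibrous corona that binds microtubules, had 12.6 and 12.2 CPM in OE-WT and 7.23 and 7.87 in CTRL. Its log2 fold change was 0.71 (SE 0.16, 95% interval 0.39 to 1.04, adjusted p = 0.0024, edgeR's quasi-likelihood test). ZWINT (ENSG00000122952, chromosome 10, 56357227 to 56361273, minus strand), the KNL1 partner through which checkpoint proteins of the corona are recruited, had 66.3 and 61.1 CPM in OE-WT and 44.1 and 41.0 in CTRL. The lowest OE-WT value was well above the highest CTRL value, and the log2 fold change was 0.58 (SE 0.08, adjusted p = 2.5e-05, edgeR's test). MIS12 (ENSG00000167842, chromosome 17, 5486285 to 5490814, plus strand), the name-giving subunit of the complex that anchors the outer kinetochore, had 29.7 and 33.2 CPM against 20.7 and 22.9. It rose by a log2 fold change of 0.53 (SE 0.10, adjusted p = 0.00095, edgeR's test), while DSN1, a partner in the same complex, had 0.11 (adjusted p = 0.588). Of the 3157 exon bases of MIS12, 301 overlap DERL2 on the opposite strand, whose own log2 fold change was 0.06 and not called.

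SKA2 (ENSG00000182628, chromosome 17, 59109857 to 59155260, minus strand), a subunit of the complex that couples kinetochores to shrinking microtubule ends, had 34.8 and 28.5 CPM in OE-WT and 22.0 and 23.7 in CTRL. The OE-WT libraries were spread but lay above both CTRL libraries, with a log2 fold change of 0.47 (SE 0.11, adjusted p = 0.0038, edgeR's quasi-likelihood test). Without OE-WT replicate 1 it was 0.32 and not called (adjusted p = 0.086, edgeR). Its partners SKA1 and SKA3 had log2 fold changes of 0.16 and 0.15, and the difference from SKA2 was not tested. KNL1, the scaffold that docks the checkpoint proteins, had 9.57 and 10.0 CPM against 8.16 and 6.82, a log2 fold change of 0.39 that was not called (adjusted p = 0.113, edgeR). The NDC80 complex grips the microtubule through NDC80 and NUF2 and joins the kinetochore through SPC24 and SPC25. These subunits had log2 fold changes of 0.19, -0.16, -0.17 and 0.08, none called, and SPC24 was called lower only when library size alone set the scale. CENPE, the kinesin that moves chromosomes to the spindle equator, had 8, 3, 4 and 7 counts and was too low to test.

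**Figure D2:**
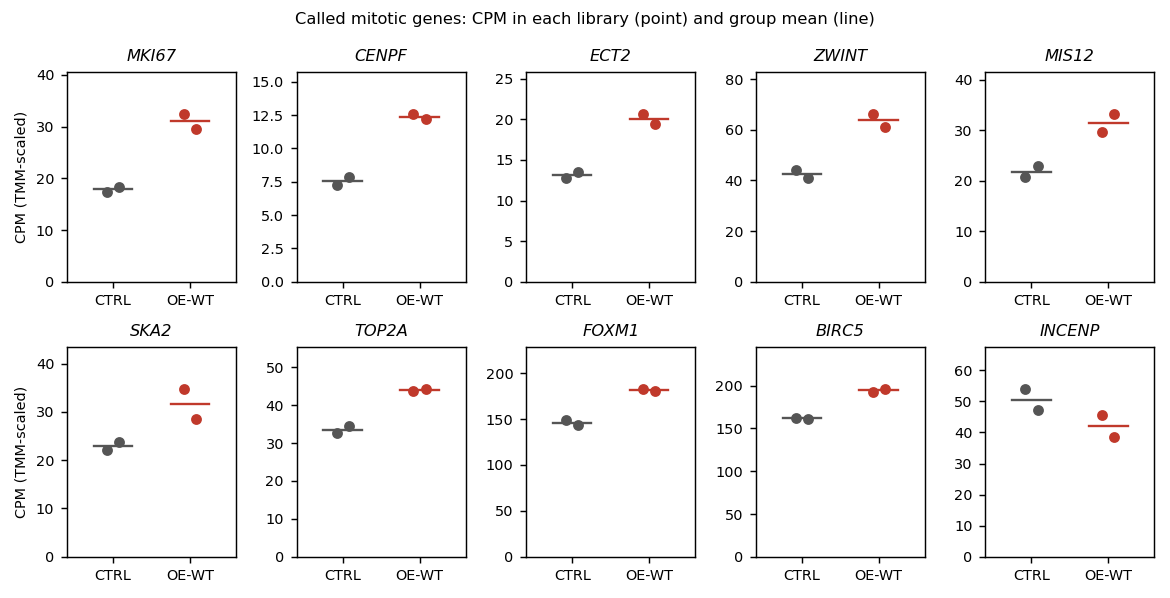
Each panel shows 1 called gene, with the CPM of each library (TMM-scaled, y axis from 0) as a point and the group mean of 2 libraries as a line, for CTRL and OE-WT. In the first 9 panels both OE-WT points lie above both CTRL points, and in the INCENP panel they lie below.

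None of 8 kinesin motors tested was called by edgeR or DESeq2. In edgeR 1 higher and 1 lower had an unadjusted p below 0.05, where 33.8% of all genes tested did in either direction. KIF18A, which limits chromosome oscillation at the spindle equator, had the log2 fold change farthest from 0 of all 56 genes, -0.94 (95% interval -1.79 to -0.08, adjusted p = 0.114, edgeR's quasi-likelihood test). It rested on 8 and 9 counts for OE-WT against 17 and 24 for CTRL, and its values ranged from -1.19 without CTRL replicate 1 to -0.64 without CTRL replicate 2. It was the 1 member past the study's thresholds with library size only, with the GC trend removed and without CTRL replicate 1. KIF2C, the microtubule depolymerase of the centromere and the most abundant kinesin of the list per length, had 81.6 and 77.2 CPM in OE-WT and 80.9 and 79.2 in CTRL, with overlapping groups and a log2 fold change of -0.01. KIF11, which pushes the spindle poles apart, had 8.97 and 10.2 CPM against 7.15 and 7.39, a log2 fold change of 0.40 (95% interval 0.05 to 0.75, adjusted p = 0.097, edgeR's test). KIF4A, KIF20A and KIF23, motors of chromosome arms and of the central spindle, had log2 fold changes of 0.13, 0.04 and 0.19. The motors KIF14 (0.52) and KIF20B (0.47), known from the midbody, were at 3.43 CPM or less in every library. KIF15, a second motor that helps hold the poles apart, had 8, 7, 15 and 9 counts and was not tested.

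Of the 9 spindle microtubule proteins none was called by edgeR or DESeq2. In edgeR 2 higher values had an unadjusted p below 0.05, where 33.8% of all genes tested did in either direction. TPX2, which activates AURKA and nucleates microtubules around chromosomes, was the most abundant of them per length, with 97.9 and 90.1 CPM in OE-WT and 88.4 and 96.8 in CTRL and a log2 fold change of 0.02. The groups overlapped. DLGAP5, which stabilizes kinetochore fibers, had 59 and 58 counts for OE-WT against 38 and 60 for CTRL, so that the CTRL libraries differed more from each other than the OE-WT libraries did. Its log2 fold change of 0.58 was not called (adjusted p = 0.088, edgeR's quasi-likelihood test), and without CTRL replicate 2 it was 0.98 and called. CKAP5, the microtubule polymerase chTOG, had 33.7 and 28.9 CPM against 24.8 and 26.9, a log2 fold change of 0.28 (adjusted p = 0.061, edgeR), called without OE-WT replicate 2 and without CTRL replicate 2. TACC3, which binds CKAP5 on kinetochore fibers, had -0.07, and PRC1, the bundler of the central spindle, had 0.05. NUSAP1, CKAP2, ASPM and HMMR had log2 fold changes of 0.17, 0.14, 0.20 and -0.06, and NUSAP1 was called higher without OE-WT replicate 2. Of the exon bases of NUSAP1, 2938 of 3608 overlap another annotated gene on the same strand, and 3181 of 5523 do for PRC1. PRC1 also shares 1892 bases with PRC1-AS1 on the opposite strand (log2 fold change -0.17, not called). The part of the shared bases in these values was not tested. Of the 58 members, 18 overlap exons of another annotated gene.

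Cytokinesis was represented by an activator and a scaffold of the contractile ring. ECT2 (ENSG00000114346, chromosome 3, 172750682 to 172821474, plus strand), the exchange factor that switches on RhoA at the division plane, had 20.7 and 19.4 CPM in OE-WT and 12.8 and 13.6 in CTRL. The groups were well apart, and the log2 fold change was 0.60 (SE 0.13, 95% interval 0.34 to 0.86, adjusted p = 0.0017, edgeR's quasi-likelihood test). ANLN, which encodes anillin, had 25.7 and 25.2 CPM against 24.6 and 26.1 and a log2 fold change of 0.00 (95% interval -0.21 to 0.22).

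Both genes of chromosome compaction and surface rose. MKI67 (ENSG00000148773, chromosome 10, 128096659 to 128126423, minus strand) encodes Ki-67, the coat protein that keeps mitotic chromosomes apart and the common marker of cycling cells. It had 32.4 and 29.6 CPM in OE-WT and 17.3 and 18.3 in CTRL, and its log2 fold change of 0.80 (SE 0.11, 95% interval 0.57 to 1.02, adjusted p = 1.6e-05, edgeR's quasi-likelihood test) was the largest increase of the list. TOP2A (ENSG00000131747, chromosome 17, 40388525 to 40417896, minus strand), the topoisomerase that untangles sister chromatids, had 43.7 and 44.3 CPM against 32.6 and 34.5. Neither gene's groups overlapped, and the log2 fold change of TOP2A was 0.39 (SE 0.09, adjusted p = 0.0024, edgeR's test). MKI67, CENPF, ECT2, ZWINT, MIS12, TOP2A and FOXM1 were called higher in each of 14 alternative settings.

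Levels of different genes were compared per length, as FPKM (CPM divided by the length in kilobases of all exon bases of the gene). This length exceeds that of the canonical transcript to differing degrees. It was 1975 against 715 bases for PTTG1, 8825 against 2799 for TACC3 and 3605 against 3473 for TPX2. The order of genes per length therefore depends on which length is used. The list spanned from 122 FPKM for CDC20 and 119.9 for UBE2C, followed by PTTG1 (56.7), BIRC5 (46.7) and CDCA8 (39.4), down to 0.0499 for CENPE and 0.133 for KIF14. There were 13 genes at 20 FPKM or more, 35 between 1 and 20, and 10 under 1. The median was 8.26 FPKM over the list and 3.13 over protein-coding genes tested. Proteins that work in 1 complex differed in mRNA level: the NDC80 complex subunits had 28.8 FPKM (SPC24), 9.10 (SPC25), 1.66 (NUF2) and 1.18 (NDC80). In the KNL1 branch ZWINT had 22.3 FPKM and KNL1 had 0.843. The checkpoint kinases TTK (0.833) and BUB1 (6.77) were likewise far below CDC20.

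**Figure D3:**
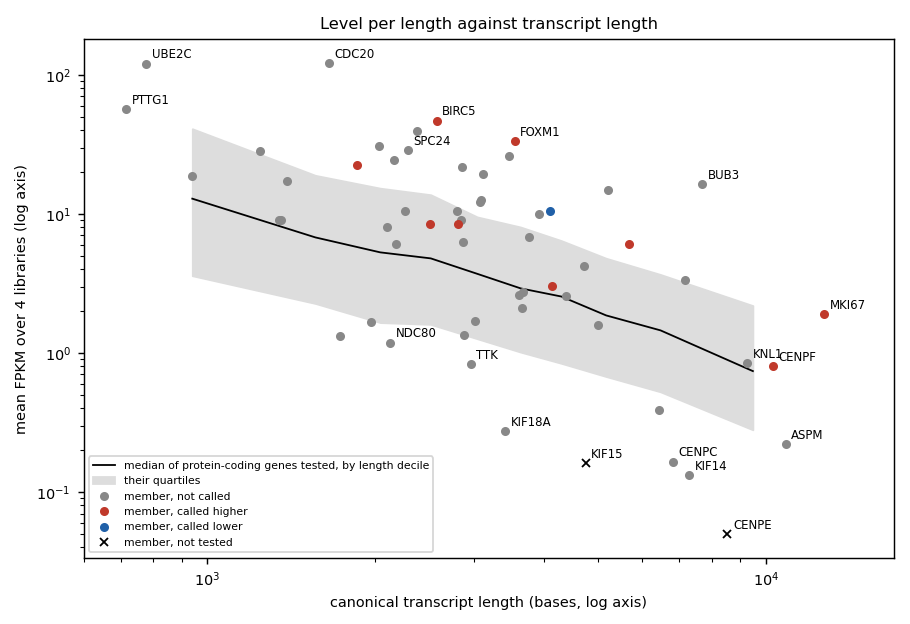
The x axis is the length of the canonical transcript in bases and the y axis the mean FPKM over 4 libraries, both on log axes, with members as points (red called higher, blue called lower, grey not called, crosses not tested). The black line and grey band are the median and quartiles of protein-coding genes tested in 10 length classes. Members below the band include KIF14, CENPC, CENPE and KIF18A, and members above it include CDC20, BIRC5 and BUB3.

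Long transcripts of the list had the lower levels per length, and their log2 fold changes were on the positive side. Spearman's rho of transcript length with FPKM was -0.54 over the 56 genes and -0.43 over 11663 protein-coding genes, and that of GC content with FPKM was 0.77 and 0.24. These genes share libraries, depth and base composition, so the values are descriptions. At a bound of 6000 bases, chosen after the values were seen, 9 tested members had longer transcripts: BUB3, CENPC, KNL1, CENPF, KIF14, KIF20B, ASPM, CKAP5 and MKI67. All 9 had positive log2 fold changes, with a median of 0.39, and 2 of them were called. The 2116 protein-coding genes of that length had a median of 0.10 with 12.6% called higher. The 47 shorter members had a median of 0.04, and 7 were called higher. The 9547 protein-coding genes of that length had a median of -0.01 with 9.80% called higher. With a trend of transcript length removed from each library the same 10 members were called. With a trend of GC content removed, 9 of the 10 were shared, the median over the list was 0.04, INCENP was lost and PTTG1 was called lower. The transcripts of the list were poorer in GC (median 42.6%) than those of protein-coding genes tested (49.0%), and the part of this in the changes was otherwise not tested.

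The study concerns tRNAs that read the codons GAG and GAC, so their share in the coding sequences was counted. It had a median of 5.40% of codons over the 56 genes, below the median of 6.43% over 11620 protein-coding genes (quartiles 4.58% and 8.56%). The synonymous codons GAA and GAT made up 8.50% in the list and 4.82% in those genes, so the list favored the codons that end in A or T. Within the list GAG and GAC ranged from 1.78% in ASPM to 16.8% in SPC24, with 13.2% in INCENP and 12.6% in ZWINT. The genes called higher had a median of 7.73%. These shares describe the sequences, and translation was not analysed here.

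Further mitosis genes outside the list were read from 8 lists with 142 genes, of which 140 were tested. In edgeR's test 19 were called higher and 7 lower, 18.6% against the background of 21.1%, with a median log2 fold change of 0.12. DESeq2 called 5 higher and 3 lower, where it called 12.1% of all genes with an adjusted p. Among 22 entry kinases, phosphatases and regulators 2 rose, CDC25A (0.33) and ENSA (0.32, an inhibitor of the phosphatase PP2A), and 1 fell. CCNB1, which encodes cyclin B1, had 212 and 212 CPM in OE-WT and 241 and 226 in CTRL (log2 fold change -0.14, adjusted p = 0.131, edgeR's quasi-likelihood test), and its kinase CDK1 had -0.05. Both were chosen after their values were seen.

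Of 18 genes of the anaphase-promoting complex and separase, 3 rose and 2 fell, among them the subunit CDC27 (0.61) and the G1 activator FZR1 (-0.36). Of 12 checkpoint and corona genes 2 rose, TRIP13 (0.48), which dismantles the checkpoint complex, and ZWILCH (0.45), a corona protein, and 1 fell. Of 18 further centromere genes 2 rose, MIS18A (0.42), which helps to load CENPA, and CENPX (0.32), and 2 fell. Of 25 other motors and microtubule proteins 4 rose, with CLASP1 (0.52) and KIF3B (0.47) in the lead, and 1 fell. Of 18 genes of gamma-tubulin, augmin and the centrosome 1 rose (TUBGCP4, 0.28), and of 12 cytokinesis genes 3 rose, among them SEPTIN7 (0.37) and SEPTIN9 (0.21). Of 16 regulators of mitotic transcription 2 rose, the repressor E2F7 (0.63) and the E2F partner TFDP1 (0.38), while MYBL2, chosen after its values were seen, had 0.10 (adjusted p = 0.345, edgeR's quasi-likelihood test). These numbers in parentheses are log2 fold changes. For each of these counts the share over all genes tested was 9.44% called higher and 11.6% called lower in edgeR's test.

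**Figure D4:**
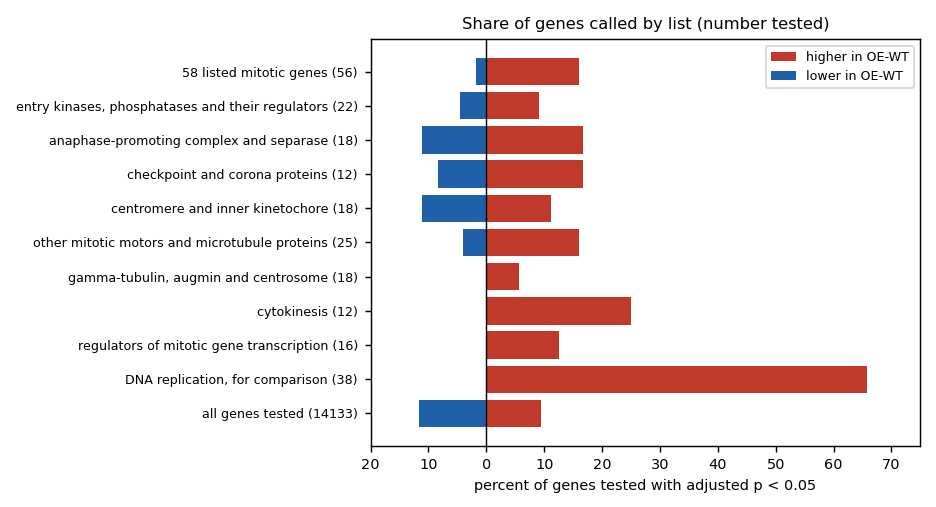
Bars give the percent of genes tested in each list (number tested in parentheses) that were called higher (red, to the right) or lower (blue, to the left) in OE-WT at an adjusted p below 0.05, with all 14133 genes tested in the bottom row. The 58 listed mitotic genes show 16.1% higher, the further mitosis lists between 5.56% and 25%, and the DNA replication list 65.8%. All lists were chosen with earlier results of these data known.

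DNA replication genes, read as a comparison from the preceding phase of the cell cycle, gave another picture. In edgeR's quasi-likelihood test 25 of 38 (65.8%) were called higher and none lower, where 9.44% of all genes tested were called higher. The median log2 fold change of these 38 genes was 0.27. At an unadjusted p below 0.05 edgeR gave 29 higher and 0 lower, where 33.8% of all genes tested passed in either direction. DESeq2 called 14 higher and 0 lower, where it called 4.58% of all genes with an adjusted p higher. POLA1, of the primase complex, had 0.87, and GINS3, of the replicative helicase, had 0.63. A test of the difference between the lists was not made. The lists, this one included, were chosen with earlier results of these data known, so these shares are descriptions. Calls of this list with library size alone as the scale are not given here.

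The members together took 0.266% and 0.270% of the total count in the OE-WT libraries, against 0.275% and 0.268% in the CTRL libraries. On TMM-scaled CPM they summed to 2799 and 2741 in OE-WT and to 2648 and 2622 in CTRL, a ratio of 1.05. On library size alone the ratio was 0.987, so the direction of the summed level depends on the scaling.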

How the data were processed

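Total RNA was taken from cleared lysates of DLD1 cells. The labels describe poly(A) selection and a stranded kit, and the methods of the study describe removal of ribosomal RNA. Per the study's methods, the authors used Cutadapt for trimming, HISAT2 for alignment on GRCh38 and HTSeq for counting, and the deposited values are raw counts per gene, while the submitters' processing notes name HISAT2 2.2.1, featureCounts 2.0.0 and DESeq2 1.34.0. The strand setting and annotation release of the counting are not given in the sources used here. The 4 columns were whole numbers, 1 per library.

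From these, edgeR 4.0.16 in R 4.3.3 filtered genes by group (minimum count 10), scaled by TMM and applied the quasi-likelihood test without a block, with Benjamini-Hochberg adjustment over 14133 genes. Called means an adjusted p below 0.05. A count of 0 allows up to 3 counts, 0.233 to 0.302 CPM, for counting error only. Pearson's r of log2 CPM across genes was 0.990 and 0.992 within groups and 0.977 to 0.983 between them, and chi-square per degree of freedom within groups was 4.81 and 4.44, so replicates were kept as separate samples. Transcript features came from GENCODE 44, which gave symbols to 57532 of the table's genes.

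Named were all called members, the largest change and highest FPKM of each role, members too low to test, and up to 2 called genes per further list. The members and lists were chosen with earlier results of these data known, and the members outside the rule that are given with values (such as AURKA, PTTG1, KNL1 and KIF11) and CCNB1, CDK1 and MYBL2 were chosen after their values were seen. Alternatives were DESeq2 1.42.0, RLE factors, library size only, edgeR's likelihood ratio and exact tests, other filters, a replicate block, GC and length trends removed (lowess, span 0.3) and each library left out, in which case the lone library of a group is assumed to vary like the other group. The fit was tested on simulated data. Figures were drawn with matplotlib 3.10.9 in Python 3.11.15.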

Additional observations from a re-analysis of the deposited data

How the results depend on the processing

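The count of members called stayed between 9 and 13 in all 14 alternatives, and no log2 fold change of a called member changed sign. INCENP, SKA2 and BIRC5 were the called members that lost their call in any of them. Library size only gave 3 members lower, 1 member past the thresholds on p and fold, a median of 0.0023, a summed ratio of 0.987, 733 of all genes higher, and 7 further mitosis genes higher with 14 lower. DESeq2 gave 0 members lower, 1377 genes called (522 higher, 855 lower), 288 past the thresholds against 445, and 5 further genes higher with 3 lower. No filter gave 0 members lower, 844 genes higher, 738 past the thresholds and 10 further genes higher. At least 10 counts in every library gave 216 past the thresholds. With the GC trend removed, 1 member passed the thresholds and the median was 0.037. Leaving out each library in turn gave 0 to 2 members lower, 0 to 1 past the thresholds, 1903 to 2852 genes called, 764 to 1231 higher and 7 to 18 further genes higher, with the lowest counts of all genes without CTRL replicate 1. With the replicate number as a block there were 9 members called and 0 lower, and 2658 of all genes. Deviations of same-numbered libraries correlated at -0.07. With 2 libraries per group this cannot show whether same-numbered libraries were prepared together. The block changed no call of a member other than INCENP. The cause of these differences was not tested. Genes with few counts, such as KIF18A, CENPC and KIF14, had intervals too wide to show a change of the size seen in the called members. This limit also reached genes with more counts. DLGAP5, with 38 to 60 counts a library, had a log2 fold change of 0.58 (SE 0.24) and was not called.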
